A study of Mus musculus with 48 samples.

Results

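The regulators of fibrinolysis and coagulation examined here were 9 genes, chosen by name: *Plat*, *Plau*, *Plaur*, *Serpine2*, *F3*, *Tfpi*, *Thbd*, *Procr* and *Vwf*. All 9 were found among the 24973 genes of the deposited table. Their RNA was measured in the 4 cell types of the neurovascular unit (NVU), that is microglia (MG), astrocytes (AC), pericytes (PC) and endothelial cells (EC), sorted from the brains of adult male wild-type C57BL/6 mice after transient middle cerebral artery occlusion (tMCAO). In this stroke model a filament blocks the right middle cerebral artery, here for 1 h, and is then withdrawn for 23 h of reperfusion. Each cell type was taken from the ischemic (ipsilateral) and from the opposite (contralateral) hemisphere of the same animals, with 6 biological replicates per group, 8 groups and 48 libraries in all. A replicate was a pool of 3 to 4 mice, so that values of single animals are averaged. All control samples came from the contralateral hemisphere of mice with a stroke, and no sham-operated or untreated mouse entered these groups. Microglia were gated as CD45low/CD11b+ cells, and the other cell types from the CD45- fraction, astrocytes as ACSA2high cells without NG2, PDGFRβ and VE-cadherin.

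Fibrinolysis dissolves fibrin through plasmin, which is cut from plasminogen by tissue-type plasminogen activator (*Plat*) or urokinase (*Plau*). Urokinase acts at the cell surface when bound to its receptor uPAR (*Plaur*), and the serpin protease nexin-1 (*Serpine2*) inhibits both activators and thrombin. Coagulation starts when blood meets tissue factor (*F3*), which is held in check by tissue factor pathway inhibitor (*Tfpi*). Thrombomodulin (*Thbd*) and the endothelial protein C receptor (*Procr*) turn thrombin towards activating protein C, an anticoagulant enzyme, while von Willebrand factor (*Vwf*) tethers platelets to the injured vessel wall. In brain, tissue factor is known as an astrocyte product, and the vessel wall is known for tissue-type plasminogen activator and von Willebrand factor.

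The deposited values were read counts per gene normalized by DESeq2 and rounded to whole numbers, called normalized counts below. They summed to between 10549900 and 16942165 per library. The smallest step between low values, which is what a read is worth, was between 0.66 and 2.36 normalized counts and gave an estimated 4.9 M to 17.1 M reads on genes per library (median 11.85 M). A value of 3 reads therefore stood for 2.0 to 7.1 normalized counts. The titles of 12 ipsilateral libraries named pericytes where their column names gave microglia, or the reverse, and the column names were followed. All 4 endothelial, all 4 pericyte and all 4 astrocyte markers, and 9 of 10 microglial markers, were higher in every library of their own cell type than in every other library. This ranking does not measure admixture of other cells. Oligodendrocyte markers (6 genes) summed to 31720 to 287314 in contralateral AC, beside 57129 to 114614 for the 4 astrocyte markers. Smooth muscle markers (5 genes) summed to 340669 to 520838 in contralateral PC, beside 44294 to 92716 for the 4 pericyte markers. The part of such cells in the AC and PC values was not tested. Replicate 2 of contralateral EC stood apart, with a correlation of 0.8225 to the median of its group across genes against 0.8852 to 0.9481 for the other 5 libraries, and EC values are given with and without it where it moved a result. In sorted bulk samples such as these, a changed mix of cells within a gate and changed RNA per cell cannot be told apart.

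The genes lie on 7 autosomes (GRCm38). The plasminogen activators *Plat* and *Plau* span chr8:22757747-22782844 and chr14:20836660-20843385, *Plaur* chr7:24462484-24475967 and *Serpine2* chr1:79794197-79858696. Tissue factor (*F3*) lies at chr3:121723537-121735048 and *Vwf* at chr6:125546774-125686679. Chromosome 2 holds the 3 others, *Tfpi* at chr2:84432855-84476775, *Thbd* at chr2:148404466-148408188 and *Procr* at chr2:155751117-155755471.

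Promoter sequences of RefSeq (GRCm38.p6), 250 bases before to 50 bases after a transcript start, were matched for 5 of the 9 genes. Shown are those of *Plaur*, *Procr* and *Serpine2*, the genes with a promoter sequence whose RNA passed the test of a stroke change in at least 1 cell type, and that of *F3*, the gene with the highest level of all per length. Capitals mark every match, on either strand, to the AP-1 motif TGANTCA or to the GC box GGGCGG, and matches that touch or overlap run together.
*Plaur*, chr7:24462233-24462532, plus strand: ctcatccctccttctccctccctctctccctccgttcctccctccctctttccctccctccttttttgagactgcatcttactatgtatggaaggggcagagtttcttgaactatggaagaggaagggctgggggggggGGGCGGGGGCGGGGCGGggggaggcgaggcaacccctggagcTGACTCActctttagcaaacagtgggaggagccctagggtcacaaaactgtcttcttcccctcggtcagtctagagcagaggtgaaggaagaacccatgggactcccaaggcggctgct
*Procr*, chr2:155750967-155751266, plus strand: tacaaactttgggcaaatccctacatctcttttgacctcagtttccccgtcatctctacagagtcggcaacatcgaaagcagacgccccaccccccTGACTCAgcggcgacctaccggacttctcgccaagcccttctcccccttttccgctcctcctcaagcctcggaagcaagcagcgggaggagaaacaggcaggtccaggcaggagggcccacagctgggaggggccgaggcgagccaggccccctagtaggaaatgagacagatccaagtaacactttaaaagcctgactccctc
*Serpine2*, chr1:79858616-79858915, minus strand: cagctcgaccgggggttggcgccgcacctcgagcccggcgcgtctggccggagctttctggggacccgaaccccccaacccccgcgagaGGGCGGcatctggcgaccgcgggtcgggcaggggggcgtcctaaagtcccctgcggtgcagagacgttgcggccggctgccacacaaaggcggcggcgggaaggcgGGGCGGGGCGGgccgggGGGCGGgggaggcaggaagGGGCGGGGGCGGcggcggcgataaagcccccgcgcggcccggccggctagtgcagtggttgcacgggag
*F3*, chr3:121723287-121723586, plus strand: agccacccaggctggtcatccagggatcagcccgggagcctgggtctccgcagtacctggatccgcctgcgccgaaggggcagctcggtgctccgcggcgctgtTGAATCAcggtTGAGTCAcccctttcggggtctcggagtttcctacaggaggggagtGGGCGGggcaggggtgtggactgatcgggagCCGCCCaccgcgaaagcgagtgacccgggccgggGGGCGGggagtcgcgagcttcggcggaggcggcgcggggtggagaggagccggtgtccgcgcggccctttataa
The AP-1 motif stood 69 bases before the start of *Plaur*, 154 before that of *Procr*, and 146 and 135 before that of *F3*, and 7.81% of all 32851 promoters of this length held it. The *Serpine2* window held 6 GC boxes and no AP-1 motif and consisted to 77.7% of G and C. *Plaur* and *F3* held 3 GC boxes each and *Procr* none, against 35.7% of all promoters with at least 1. The motif ACGTG, the core to which hypoxia-inducible factors bind, was in none of the 4 windows (19.6% of all promoters), nor was TTCNNNGAA, which STAT factors bind (8.3%). These matches are letters in a window and no measure of binding.

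In the contralateral hemisphere the 9 genes were split between the cell types, and 43 of their 54 pairwise differences between cell types passed the threshold (limma, p adjusted after Benjamini and Hochberg, 0.05 or less, and a difference of 1.5-fold or more), against 44.9% of the same contrasts over all 15003 genes tested. EC carried most *Plat*, *Vwf* and *Procr*, AC most *F3* and *Serpine2*, and MG most *Plau*. *Thbd* stood first in EC and then in PC, *Plaur* in MG and EC, and *Tfpi* in MG, PC and EC.

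*Plat*, the tissue-type activator, fell from EC over PC and AC to MG, with means of 23859.8 ± 9331, 9075 ± 5559, 3704.5 ± 2355 and 305.5 ± 192 normalized counts (SD, n = 6). Each neighbour in this order differed (log2 difference of 1.47 between EC and PC, adjusted p = 0.0102; 1.28 between PC and AC, adjusted p = 0.0204; 3.70 between AC and MG, adjusted p = 5.01e-09, limma). PC replicates 5 and 6 were high on both sides, at 15522 and 16857 contralateral and 15577 and 18565 ipsilateral, while the other PC libraries lay between 3628 and 6211. *Plau*, urokinase, was low in every cell type. It was listed at 0 in all 6 contralateral EC libraries and at 0 to 3 in the ipsilateral ones, at or under the worth of 3 reads, and reached 35 to 255 in contralateral MG. MG exceeded PC by 3.56 on the log2 scale (adjusted p = 0.00203, limma), whereas PC and AC, at 0 to 84 and 0 to 27, did not differ beyond their spread (adjusted p = 0.489).

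*Plaur*, the urokinase receptor, had similar levels in contralateral MG (1767 to 3235, median 2085) and EC (843 to 3794, median 1954), which did not differ beyond their spread (log2 difference 0.20 ± 0.75 SE, adjusted p = 0.869, limma). Both lay above PC and AC, with a log2 difference of 3.85 between EC and PC (adjusted p = 5.14e-05). *Serpine2*, the inhibitor of the activators, was highest in AC at 15184 ± 4091 (SD, n = 6) and lowest in EC at 1535.5 ± 403. AC exceeded MG by 0.92 on the log2 scale (adjusted p = 0.00134, limma) and PC exceeded EC by 2.06 (adjusted p = 2.34e-09), while MG and PC, at 7777 ± 395 and 6312 ± 1293, did not differ beyond their spread (adjusted p = 0.28).

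*F3*, which starts coagulation, was an AC transcript, at 25903 to 41779 normalized counts in contralateral AC. The next cell type, PC, had 410 to 2112, and the difference between AC and PC was 4.84 on the log2 scale (adjusted p = 3.43e-05, limma). EC were lowest, at 0 to 407. Its inhibitor *Tfpi* was evenly spread over MG, PC and EC, with means of 757 ± 88.5, 649 ± 205 and 603.5 ± 219.8 (SD, n = 6), none of these neighbours differing beyond their spread (adjusted p = 0.817 and 0.939, limma). AC, with 0 to 139, were below EC by a log2 difference of 4.78 (adjusted p = 4.87e-06).

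*Thbd*, thrombomodulin, was high in EC and PC (4063 ± 1672 and 1559 ± 947, SD, n = 6), with a log2 difference of 1.40 ± 0.73 SE that did not pass (adjusted p = 0.138, limma), and low in AC (2 to 166) and MG (4 to 94). Contralateral EC replicate 2 stood at 821, while the other 5 EC libraries, at 4256 to 5656, lay above every PC library, 501 to 3193. Without that library, a fit chosen after seeing the data, the difference was 1.82 ± 0.75 SE (adjusted p = 0.0566, limma). *Procr*, the protein C receptor, fell from EC (545 to 1159) over PC (137 to 415) and MG (39 to 83) to AC (0 to 53), and each of these neighbours differed (adjusted p = 0.0097, 0.0123 and 3.88e-05, limma). *Vwf* was an EC transcript, at 14610 to 35724 against at most 931 in any contralateral library of another type, with a log2 difference of 5.29 between EC and PC (adjusted p = 1.29e-08). Its values in AC (25 to 406) and MG (35 to 319) did not differ beyond their spread (adjusted p = 0.948).

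**Figure D1:**
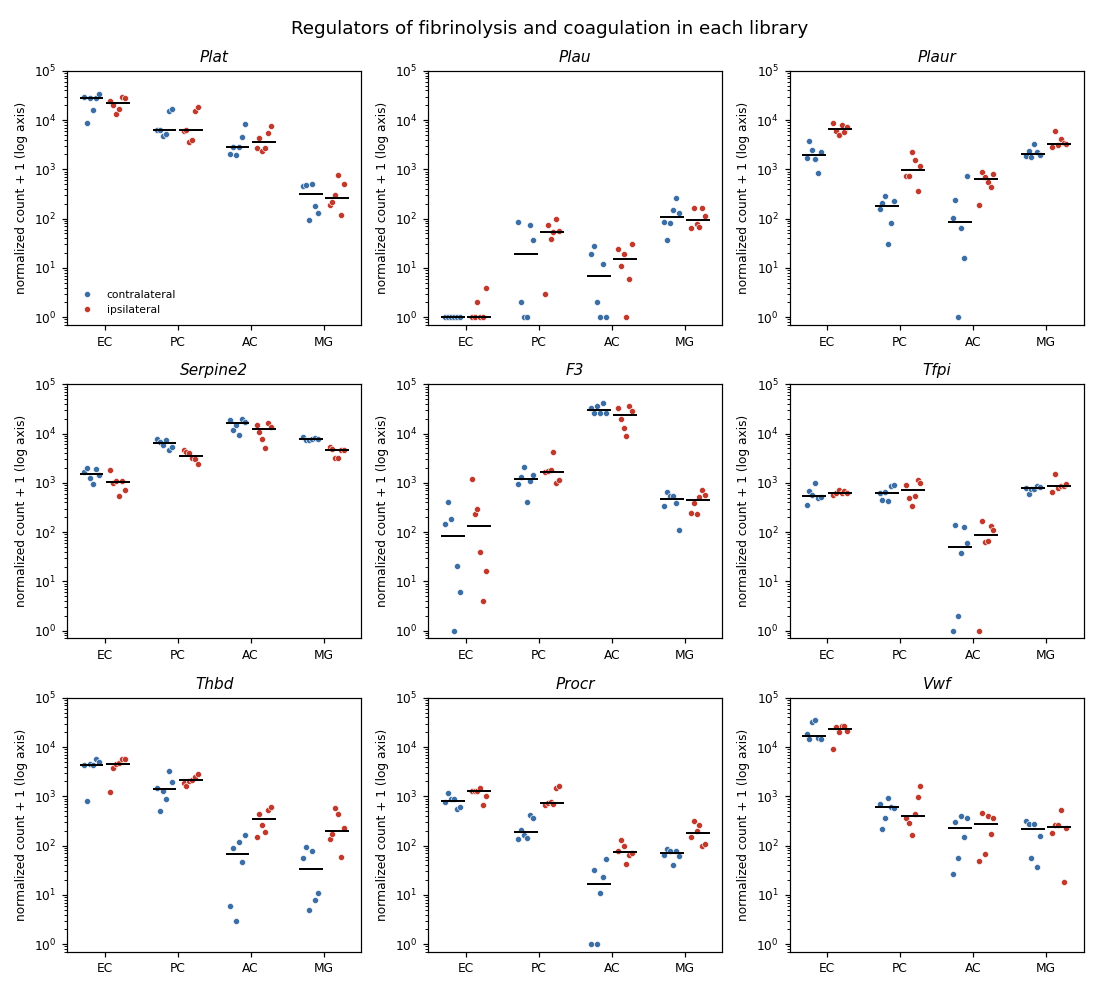
Normalized counts plus 1 (log axis) of the 9 genes in each of the 48 libraries, by cell type (EC, PC, AC, MG) and hemisphere (blue contralateral, red ipsilateral); points are libraries in the order of replicates 1 to 6 and black lines are group medians. *F3* stands at 25903 to 41779 in contralateral AC and *Vwf* at 14610 to 35724 in contralateral EC, while the ipsilateral *Plaur* points of EC, 5050 to 8584, lie above all contralateral ones.

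To compare genes with each other, values were divided by the length of all exons in GENCODE M21. Per kilobase, *Plat* led the 9 genes in contralateral EC (3823 ± 1495, SD, n = 6), followed by *Vwf* (1358 ± 589), *Thbd* (1091 ± 449) and *Plaur* (805 ± 381). *Plat* also led in contralateral PC (1454 ± 891), ahead of *Serpine2* (762 ± 156) and *F3* (478 ± 224). In contralateral AC *F3* led with 12479.9 ± 2669.8, ahead of *Serpine2* (1832 ± 494), and in contralateral MG the inhibitor *Serpine2* (938 ± 47.6) and the receptor *Plaur* (856 ± 207) stood above the other 7. *Vwf*, with its 16.06 kb of exons, thus ranked behind *Plat* in EC.

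**Figure D2:**
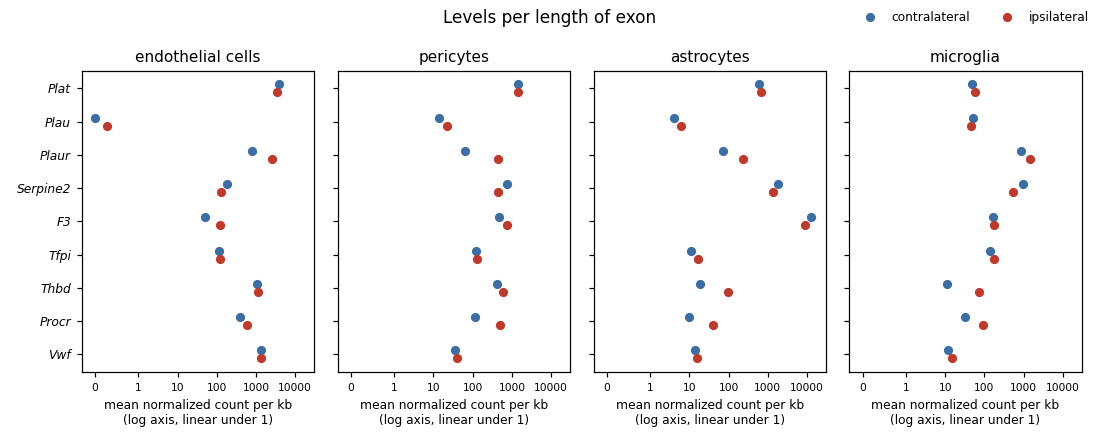
Mean normalized count per kilobase of exon (log axis, linear under 1) of the 9 genes in each cell type, blue for contralateral and red for ipsilateral means over 6 libraries. *Plat* is the rightmost point in contralateral EC (3823) and PC (1454), *F3* in AC and *Serpine2* in contralateral MG (938).

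The change after stroke was tested in each cell type as ipsilateral against contralateral, and a gene was called where its adjusted p (limma, after Benjamini and Hochberg) was 0.05 or less, it changed 1.5-fold or more and every library of at least 1 hemisphere had over 10 normalized counts. Changes are differences between group means of log2 of the normalized count plus 1. For low genes they depend on the added 1 and on single libraries at or near 0. They can then exceed the change of the mean level. *Plaur* in AC had means of 192.3 and 597 and a change of 10.40-fold. In EC the urokinase receptor *Plaur* rose, 1 of 8 genes tested, against 0.491% of all 13242 genes called. *Plaur* and *Procr* rose in PC, 2 of 9 genes, where 1.02% of 13597 genes were called. In MG *Plaur*, *Procr* and *Thbd* rose and *Serpine2* fell, 4 of 9 genes, where 10.6% of 13300 genes were called. None of the 9 was called in AC (limma), where 0.341% of 15264 genes were called. There 3 of the 9 had an unadjusted p under 0.05, as had 1416 of the 15264 genes. These main tests did not use the pairing of the hemispheres. With the replicate as a block, *Thbd* was also called in AC (adjusted p = 0.0357, limma), where 242 of 15264 genes were called. The block also added *Serpine2* in PC, as lower (adjusted p = 0.0297, limma), where 226 of 13597 genes were called. No call and no called direction among the 9 depended on the scaling, although equal library totals moved the median log2 change of all genes from -0.03 to 0.08 in EC and from -0.04 to 0.09 in PC. They also moved the higher and lower calls over all genes from 48 and 17 to 58 and 10 in EC, and from 60 and 79 to 89 and 48 in PC.

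**Figure D3:**
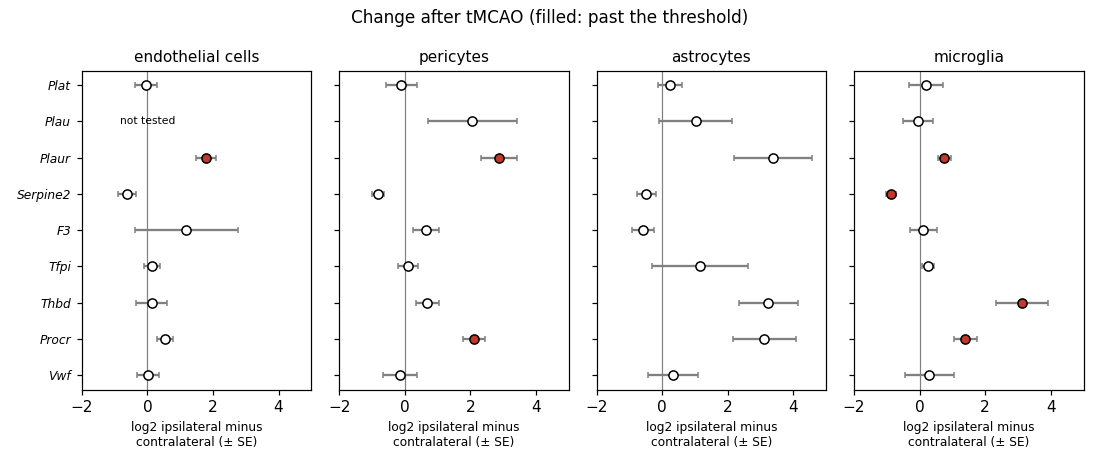
Log2 change (ipsilateral minus contralateral, on log2 of normalized count plus 1, limma) of the 9 genes in each cell type; points are estimates from 6 against 6 libraries, bars are ± 1 SE, and filled points passed the threshold. The filled points are *Plaur* in EC (1.79), PC (2.88) and MG (0.75), *Procr* in PC (2.11) and MG (1.40), and *Thbd* (3.13) and *Serpine2* (-0.87) in MG.

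*Plaur* was higher in the ipsilateral hemisphere in 6 of 6 pools in each of the 4 cell types. In EC it went from 843, 1954 and 3794 normalized counts (lowest, median and highest of 6 contralateral libraries) to 5050, 6566.5 and 8584 ipsilateral. All ipsilateral EC libraries lay above all contralateral ones, as was so for 1.13% of genes in this comparison. The rise was 3.45-fold (log2 change 1.79 ± 0.30 SE, adjusted p = 0.0187, limma), and 1.99 on the log2 scale without contralateral replicate 2 (adjusted p = 0.0039, limma, where 1.7% of 13076 genes were called). In PC the receptor went from 30, 181.5 and 283 to 365, 966.5 and 2237, again without overlap (0.838% of genes), a 7.36-fold rise (log2 change 2.88 ± 0.55 SE, adjusted p = 0.0259, limma). In MG it went from 1767, 2085 and 3235 to 2885, 3341.5 and 6040, with overlapping groups and a smaller rise of 1.68-fold (log2 change 0.75 ± 0.20 SE, adjusted p = 0.0299, limma). The AC libraries spread more, from 0, 82.5 and 732 to 192, 627 and 897, and the log2 change of 3.38 ± 1.20 SE did not pass (adjusted p = 0.409, limma; 0.0137 in the joint fit of 48 libraries).

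The calls of *Plaur* did not survive the loss of most pools of mice. Fits without a pool mostly called fewer genes over all. Without pools 1 to 6 in turn, 38, 84, 16, 13, 20 and 10 genes were called in EC, against 65 with all pools. In PC these counts were 108, 112, 21, 11, 33 and 14 against 139. In MG they were 844, 1909, 557, 637, 1024 and 891 against 1404. A loss of calls in these fits was thus not particular to *Plaur*. Leaving out pool 1, 3, 4 or 6 ended the call in EC (adjusted p = 0.0677, 0.0537, 0.0992 and 0.129, limma), leaving out pool 1, 3, 4, 5 or 6 ended it in PC (0.066, 0.0765, 0.0925, 0.0516 and 0.103), and leaving out pool 1, 3, 5 or 6 ended it in MG (0.0637, 0.0929, 0.0661 and 0.077). Replicates 1 to 4 alone ended it in all 3 (adjusted p = 0.178, 0.0832 and 0.13), and the joint fit of 48 libraries in EC and MG (0.248 and 0.643). The log2 changes stayed between 1.58 and 2.02 in EC, 2.32 and 3.18 in PC, and 0.63 and 0.82 in MG over all alternatives. The summed normalized counts of 10 microglial genes, none at 0 throughout, were 7114 to 23207 in contralateral and 7140 to 52421 in ipsilateral EC of replicates 1 to 4, beside 444033 to 538781 in contralateral and 231042 to 391876 in ipsilateral MG. Between the hemispheres of EC they went from 14645 to 25240, from 23207 to 22056, from 18101 to 52421 and from 7114 to 7140 in these 4 pools. In PC they were 1197 to 26366 contralateral and 14391 to 65650 ipsilateral, and higher on the ipsilateral side in each of the 4 pools. In replicates 5 and 6 they were 1198 to 1309 and 1093 to 1115 in EC, and 626 to 1080 and 733 to 940 in PC. In those pools *Plaur* went from 843 to 5609 and from 2239 to 7233 in EC, and from 80 to 365 and from 230 to 1188 in PC. In replicates 1 to 4, summed neutrophil markers (8 genes) were 337 to 1724 in contralateral and 2153 to 10422 in ipsilateral EC. In PC they were 0 to 1659 and 44 to 13847. Summed monocyte and macrophage markers (9 genes) were 847 to 6635 and 4094 to 20157 in EC, and 248 to 4350 and 2639 to 37155 in PC. In replicates 5 and 6, neutrophil markers were 6 to 29 and 93 to 269 in EC, and 1 to 53 and 50 to 155 in PC. Monocyte and macrophage markers there were 210 to 332 and 455 to 1097 in EC, and 407 to 451 and 156 to 214 in PC. The part of these cells in the *Plaur* values was not tested.

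*Procr*, the receptor that presents protein C to thrombomodulin-bound thrombin, was likewise higher in 6 of 6 pools in each cell type. In PC it went from 137, 185 and 415 normalized counts (lowest, median and highest, n = 6) to 664, 746 and 1653, without overlap, a 4.32-fold rise (log2 change 2.11 ± 0.34 SE, adjusted p = 0.0153, limma). The 6 paired differences in PC lay close together, between 1.81 and 2.34 on the log2 scale. In MG it went from 39, 68.5 and 83 to 96, 176.5 and 312, also without overlap (3.78% of genes), a 2.64-fold rise (log2 change 1.40 ± 0.36 SE, adjusted p = 0.0217, limma). Ipsilateral PC thus came to 995.7 ± 438.7 (SD, n = 6), beside 1167 ± 285 in ipsilateral EC. In EC themselves the change from 545, 810.5 and 1159 to 667, 1282 and 1461 did not pass (log2 change 0.54 ± 0.24 SE, adjusted p = 0.394, limma). AC held little of it, 0, 16 and 53 contralateral and 41, 72 and 130 ipsilateral, and their log2 change of 3.12 ± 0.96 SE did not pass (adjusted p = 0.297; 0.00161 in the joint fit).

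Leaving out pool 3, 4 or 6 ended the call of *Procr* in PC (adjusted p = 0.0708, 0.0776 and 0.0503, limma), and leaving out pool 1, 3 or 4 ended it in MG (0.0637, 0.0799 and 0.104), as did the joint fit (0.15). The fits without these pools called 21, 11 and 14 of all genes in PC and 844, 557 and 637 in MG. In PC replicates 5 and 6, where ipsilateral microglial markers summed to 733 to 940 and neutrophil markers to 50 to 155, *Procr* went from 415 to 1456 and from 355 to 1653. Endothelial markers (4 genes) summed to 792 to 3027 in contralateral and 1263 to 6219 in ipsilateral PC, beside 63144 to 92219 and 50747 to 80091 in EC. Fibroblast markers (5 genes) in PC summed to 572 to 4885 contralateral and 1341 to 5921 ipsilateral. They were higher on the ipsilateral side in replicates 2, 4 and 6 and lower in replicates 1, 3 and 5. The part of microglial, neutrophil, endothelial and fibroblast RNA in the PC values of *Procr* was not tested.

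*Thbd*, thrombomodulin, was low in contralateral MG and AC and higher in 6 of 6 ipsilateral pools of both. In MG it went from 4, 32 and 94 normalized counts (lowest, median and highest, n = 6) to 58, 198.5 and 570, with only the lowest ipsilateral library among the contralateral values, an 8.73-fold rise (log2 change 3.13 ± 0.79 SE, adjusted p = 0.0201, limma). Contralateral MG replicates 3, 5 and 6 stood at 4, 7 and 10, where 3 reads are worth 2.5 to 3.0. The size of the fold thus rests in part on values near what these libraries can show. Over all alternatives the log2 change in MG lay between 2.38 and 3.58. The call of *Thbd* in MG was lost without pool 3 or without pool 6 (adjusted p = 0.103 and 0.0708, limma), and with replicates 1 to 4 alone (0.0821), where 557, 891 and 787 of all genes were called. In AC it went from 2, 68 and 166 to 152, 347.5 and 620, with a log2 change of 3.24 that passed with the replicate as a block (± 0.64 SE, adjusted p = 0.0357, limma, where 1.59% of genes were called) and in the joint fit (adjusted p = 0.0157), and not in the main test (± 0.90 SE, adjusted p = 0.229). The ipsilateral lowest value of AC, 152, lay below the contralateral highest, 166. In EC, where *Thbd* is best known, 10 of 12 libraries lay between 3706 and 5854 on either side, and the log2 change was 0.13 ± 0.48 SE (adjusted p = 0.955, limma). The 2 others were contralateral replicate 2 with 821 and ipsilateral replicate 1 with 1202, and without the former the log2 change was -0.29. PC went from 501, 1387 and 3193 to 1646, 2127.5 and 2852 and did not pass (log2 change 0.69 ± 0.35 SE, adjusted p = 0.363).

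In MG the summed level of 8 neutrophil genes, none at 0 throughout, ranged from 6423 to 8037 in contralateral and from 4385 to 19551 in ipsilateral libraries, of which *Csf3r* made up 5562 to 7882 contralateral and 718 to 3457 ipsilateral. *S100a8* alone went from 20 to 534 contralateral to 571 to 9831 ipsilateral. Platelet genes (6) summed to 328 to 831 and to 325 to 4040, and 9 monocyte and macrophage genes to 8749 to 13570 and to 9383 to 24770. Endothelial markers (4 genes) summed to 255 to 1217 in contralateral and 243 to 2305 in ipsilateral MG. The part of these cells in the MG values of *Thbd*, *Procr* and *Plaur* was not tested. Endothelial markers in AC summed to 157 to 1318 contralateral and 122 to 1577 ipsilateral. *Thbd* in AC went from 46 to 518 and from 166 to 620 in replicates 5 and 6. Microglial markers there summed to 2883 to 2900 contralateral and 2202 to 2393 ipsilateral. Neutrophil markers there went from 36 to 98 to 246 to 430, and monocyte and macrophage markers from 88 to 131 to 598 to 728. In AC of replicates 1 to 4, neutrophil markers were 141 to 1482 and 406 to 5485. Monocyte and macrophage markers were 217 to 3187 and 1239 to 8535. Pericyte markers (4 genes) in AC were 1538 to 2705 and 744 to 1947 in replicates 1 to 4. They were 3152 to 6319 and 2814 to 3622 in replicates 5 and 6. The part of these cells in the AC values of *Thbd* was not tested.

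*Serpine2*, the inhibitor of plasminogen activators and thrombin, was the only one of the 9 that was called lower. In MG it went from 7261, 7782.5 and 8370 normalized counts (lowest, median and highest, n = 6) to 3211, 4679.5 and 5373. All ipsilateral MG libraries lay below all contralateral ones, as for 4.78% of genes, and the level was 0.55 of the contralateral one (log2 change -0.87 ± 0.16 SE, adjusted p = 0.00325, limma). The call held under all 15 alternatives that gave it a value. In PC it was also lower in 6 of 6 pools, from 4552, 6289.5 and 7893 to 2412, 3561 and 4717, with a slight overlap of the groups. The log2 change of -0.82 in PC just missed the threshold (± 0.19 SE, adjusted p = 0.0571, limma) and passed it with the replicate as a block (± 0.14 SE, adjusted p = 0.0297, where 1.66% of genes were called). In AC it was lower in 6 of 6 pools (9243, 16066 and 19499 to 4981, 12281.5 and 16120) and in EC in 5 of 6 (958, 1542 and 2023 to 544, 1023 and 1811), and neither change passed (log2 change -0.48 ± 0.30 SE and -0.63 ± 0.28 SE, adjusted p = 0.674 and 0.387, limma). Smooth muscle markers (5 genes) moved with *Serpine2* in PC, from a summed 340669 to 520838 contralateral to 158116 to 351127 ipsilateral. Microglial markers (10 genes) in MG were lower in every ipsilateral pool, at 444033 to 538781 contralateral and 231042 to 391876 ipsilateral. Astrocyte markers (4 genes) in MG were likewise lower in every pool, at 2851 to 3616 and 958 to 1432. The part of such shifts in the PC and MG values of *Serpine2* was not tested.

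**Figure D4:**
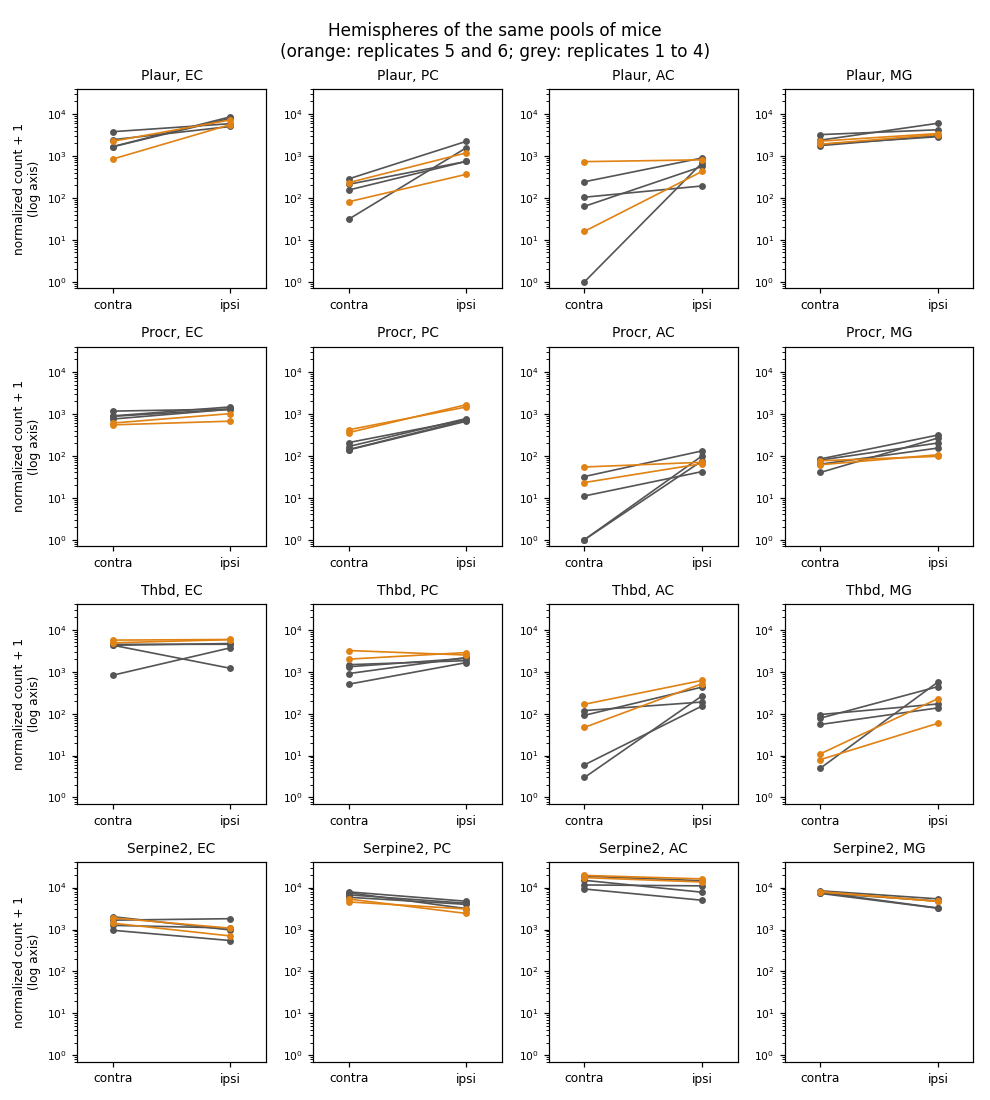
Normalized counts plus 1 (log axis) of *Plaur*, *Procr*, *Thbd* and *Serpine2* in the contralateral and ipsilateral hemisphere; each line joins the libraries of a pool of mice in the cell type named above the panel, orange for replicates 5 and 6 and grey for replicates 1 to 4. All 6 lines rise for *Plaur* and *Procr* in every cell type, and all 6 fall for *Serpine2* in PC, AC and MG.

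The plasminogen activators themselves were not called in any cell type. *Plat* in EC was 8885, 27673 and 33827 normalized counts (lowest, median and highest, n = 6) contralateral and 13292, 22339 and 29519 ipsilateral, a log2 change of -0.04 ± 0.34 SE (adjusted p = 0.985, limma). The other cell types had log2 changes of *Plat* of -0.10 ± 0.46 SE in PC, 0.23 ± 0.37 SE in AC and 0.21 ± 0.52 SE in MG. *Plau* was at 35, 105.5 and 255 in contralateral and 64, 93 and 164 in ipsilateral MG (log2 change -0.05 ± 0.45 SE, adjusted p = 0.954), where its receptor rose. In EC *Plau* was too low to be tested. In PC it ranged from 0 to 84 contralateral and from 2 to 98 ipsilateral, and the log2 change of 2.06 ± 1.36 SE did not pass (adjusted p = 0.498).

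The initiator and its inhibitor were not called either. *F3* in AC went from 25903, 29469 and 41779 normalized counts to 8999, 23712 and 35699, lower in 4 of 6 pools (log2 change -0.59 ± 0.34 SE, adjusted p = 0.64, limma). Ipsilateral AC replicates 3 and 4, at 12921 and 8999, were the lowest of the 12. Their summed astrocyte markers (4 genes), 49063 and 41095, were also the lowest of the 12. Oligodendrocyte markers (6 genes) summed to 31720 to 287314 in contralateral and 61244 to 354593 in ipsilateral AC. Ipsilateral replicates 3 and 4 had 240041 and 354593 of these. The part of the mix of cells in the AC values of *F3* was not tested. *F3* in PC was 410, 1183 and 2112 against 983, 1675 and 4153 (log2 change 0.64 ± 0.39 SE, adjusted p = 0.456). *Tfpi* was within 570 to 728 in all 6 ipsilateral EC libraries against 358 to 991 contralateral, with a log2 change of 0.15 ± 0.24 SE, and its log2 changes in PC and MG were 0.09 ± 0.31 SE and 0.26 ± 0.19 SE (adjusted p of at least 0.387 in all 3, limma). *Vwf* in EC was 14610, 17072.5 and 35724 contralateral and 9208, 23502 and 27359 ipsilateral, a log2 change of 0.02 ± 0.33 SE (adjusted p = 0.993).

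Whether the stroke change of a gene differed between cell types was tested over all 48 libraries with an F test of the cell type by hemisphere terms. None of the 9 passed (limma, adjusted p of at most 0.05), where 0.66% of 15003 genes did, and 2 of the 9 had an unadjusted p under 0.05, as had 1690 of the 15003 genes. These were *Thbd* (F = 4.88, adjusted p = 0.196, limma) and *Procr* (F = 3.55, adjusted p = 0.329, limma). *Plaur*, called in 3 cell types and not in the other, had an adjusted p of 0.526. The calls in some cell types and not in others are therefore not shown to be differences between cell types.

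The order of the cell types in the ipsilateral hemisphere gave 37 of 54 differences past the threshold, against 39.1% of the same contrasts over all genes. For *Procr*, ipsilateral EC and PC did not differ beyond their spread (log2 difference 0.29 ± 0.58 SE, adjusted p = 0.783, limma). For *Plaur*, EC came before MG, at 6714 ± 1403 against 3812 ± 1186 (SD, n = 6), and these did not differ beyond their spread either (adjusted p = 0.43). *Serpine2* and *F3* were still highest in AC, by log2 differences of 1.31 (adjusted p = 1.36e-05) and 3.60 (adjusted p = 0.00172) over the next cell type, and *Vwf* and *Plat* in EC, by 5.45 (adjusted p = 1.01e-08) and 1.53 (adjusted p = 0.0105).

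Further genes of the same pathways were taken from 2 lists. Of 13 other fibrinolysis genes, 11 were in the table and 9 to 10 were tested per cell type. In MG, where 10.6% of all genes were called, 3 of 9 rose, thrombospondin 1 (*Thbs1*, an adhesion protein, log2 change 2.97 ± 0.29 SE, adjusted p = 2.89e-05), annexin A2 (*Anxa2*, 2.48 ± 0.35 SE, adjusted p = 0.000638), which binds plasminogen and its tissue-type activator at the cell surface, and the plasminogen receptor *Plgrkt* (1.12 ± 0.33 SE, adjusted p = 0.0412), the last in 1 of 6 fits without a pool (0.037 to 0.105). None was called lower in any cell type, and none was called in EC or AC (3 and 5 with an unadjusted p under 0.05, as had 1581 of 13242 and 1416 of 15264 genes, limma). The median log2 change of the list was 0.33 in EC, 0.81 in PC, 1.22 in AC and 0.89 in MG, against medians over all genes tested of -0.03, -0.04, -0.06 and -0.18.

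Of 37 other coagulation genes, 32 were in the table and 16 to 18 were tested per cell type. *Pros1*, protein S, a cofactor of activated protein C, rose in PC from 1823 ± 502 to 3547 ± 916 (SD, n = 6, log2 change 0.97 ± 0.21 SE, adjusted p = 0.0479, limma), and lost its call whichever pool was left out (0.0603 to 0.175). In AC the fibrinogen chain *Fga* rose from 0 to 2 normalized counts to 38 to 280, higher in 6 of 6 pools (adjusted p = 0.000135, limma). In MG, where 10.6% of all genes were called, *F10*, coagulation factor X, rose from 0 to 34 to 26 to 161 (adjusted p = 0.00866), the phosphatidylserine-binding annexin A5 (*Anxa5*) rose 4.91-fold (log2 change 2.30 ± 0.35 SE, adjusted p = 0.00127), and *Lman1*, a cargo receptor for factors V and VIII, rose 1.70-fold (adjusted p = 0.0225). Without a pool, the call of *Lman1* was lost in 3 of 6 fits (adjusted p up to 0.0932, limma) and that of *F10* in 1 (0.0589). *Entpd1*, the ectonucleotidase CD39, which clears platelet-activating ADP, fell in MG from 9756 ± 1524 to 3432 ± 1241 (SD, n = 6, log2 change -1.58 ± 0.23 SE, adjusted p = 0.00101, limma). None of the 16 was called in EC, where 2 had an unadjusted p under 0.05. The median log2 change of the list was 0.14 in EC, 0.15 in PC, 0.00 in AC and -0.09 in MG.

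The genes whose levels ran most like those of the 9 over the 48 libraries were listed by Pearson's r on the log2 scale among 15003 genes, as a description, since libraries of a cell type share most of their variation. *Vwf* ran with *Flt1*, *Cldn5* and *Ly6c1* (r of 0.9705, 0.9673 and 0.9670), *Plat* with *Ctnna1*, *Cav2* and *Sptbn1* (0.9601, 0.9463 and 0.9450), and *F3* with *Gjb6*, *Lsamp* and *S100b* (0.9388, 0.9241 and 0.9046). *Thbd* ran with *Slc25a24*, *Akap12* and *Ecm1* (0.9340, 0.9250 and 0.9246), *Procr* with *Tagln2*, *Fxyd5* and *Tpm4* (0.9318, 0.9066 and 0.8983), and *Serpine2* with *Sorl1*, *Mid1ip1* and *Ldhb* (0.9013, 0.8988 and 0.8894). The values were lower for *Plaur* with *Clic1*, *Casp8* and *Ecscr* (0.8826, 0.8799 and 0.8735), for *Tfpi* with *Ehd4*, *Hprt* and *Zc3hav1* (0.8727, 0.8720 and 0.8615), and for *Plau* with *Efhd2*, *Epb41l2* and *Gm10134* (0.8213, 0.8147 and 0.8092). Among the 9 themselves, *Thbd* and *Procr* had the highest r, 0.8386, and *Serpine2* and *Vwf* the lowest, -0.8492.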

How the data were processed

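Per the labels and the methods of the study, RNA of sorted EC, PC, AC and MG was amplified with a SMART-Seq HT kit and sequenced, and reads were checked with FastQC, trimmed with Trimmomatic 0.38, aligned to GRCm38 with STAR 2.6.1d, counted per gene with featureCounts 1.6.3 from Subread and normalized with DESeq2 1.18.1. Reads that hit several genes or places were left out by the authors. The authors deposited a single table of normalized counts for 24973 genes and 48 libraries, rounded to whole numbers, treated here as a score on a linear scale and not as raw counts, so no count model was fitted. No libraries held identical values.

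Changes were tested with limma 3.58.1 in R 4.3.3 on log2(normalized count + 1), per cell type over 12 libraries, for genes whose mean reached 10, two-sided, with a trended prior and Benjamini-Hochberg adjustment over all genes. Differences between cell types and the cell type by hemisphere terms were tested in a joint fit of all 48 libraries. Both tests were run on simulated log values drawn independently for each gene and library. These held no effect of the pool, so they do not show how the tests behave where libraries share a pool. Python 3.11.15, pandas 2.3.3, numpy 2.4.6 and matplotlib 3.10.9 were used for the rest. Replicate numbers pair the hemispheres, since both came from the same pooled mice, and the deviations of same-numbered libraries from their group means correlated at 0.21 in EC, 0.21 in PC, 0.37 in AC and 0.12 in MG on average. The replicate was nevertheless left out of the main model, as the study states no block, and added as an alternative. The main tests of the stroke change thus did not use the pairing. With the block, 73, 226, 242 and 1468 genes were called in EC, PC, AC and MG, against 65, 139, 52 and 1404 without it.

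The 9 genes were named in all groups. Of the lists of further pathway genes, called genes were named, up to 4 per cell type with the largest change. The 3 others called in MG were named after their values were seen. A further result of these lists is not reported here. The members, lists and alternatives were chosen with earlier results of these data known. Alternatives were pseudocounts of 0.1 and 10, no filter on low values or a mean of 50 and more, rescaling to equal totals or by the median of ratios, the replicate block, the joint fit, replicates 1 to 4 alone, each replicate left out, and no expression or fold rule. Leaving out contralateral EC replicate 2, alone or with ipsilateral EC replicate 1, was added after the data were seen, in the EC and joint fits. The precision is set by the spread between pools.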

Additional observations from a re-analysis of the deposited data

Results flagged for a closer look

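In each group of 6 libraries the highest and the lowest value of each gene were compared with the nearest other value by Dixon's criterion, which chance alone passes in about 1 in 20 groups. Of 71 groups checked, 6 held such a value. *Plaur* stood at 732 normalized counts in contralateral AC replicate 6, where the other 5 libraries had 0 to 242. *F3* stood at 1203 in ipsilateral EC replicate 1, where the others had 3 to 292, and at 4153 in ipsilateral PC replicate 4, where the others had 983 to 1818. *Thbd* stood at 821 in contralateral EC replicate 2, below the 4256 to 5656 of the others. *Tfpi* stood at 1488 in ipsilateral MG replicate 2 against 664 to 941, and *Plau* at 3 in ipsilateral EC replicate 6 against 0 to 1, which is at the limit of what these libraries can show.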

How the results depend on the processing

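Of the changes of single genes, 478 values under alternatives kept their direction and their side of the threshold, 28 lost a call, 6 gained one and 26 turned their sign, all of the last without a call in the main test. The number of the 9 genes called was 1 in EC, 2 in PC, 0 in AC and 4 in MG. The joint fit of 48 libraries gave 0 in EC, 3 in AC and 2 in MG, with 235, 89 and 827 of all 15003 genes called. Replicates 1 to 4 alone gave 0 in EC, 1 in PC and 2 in MG, with 11 of 13429, 31 of 13600 and 787 of 13219 genes called. Leaving out a replicate gave 0 to 1 in EC, 0 to 2 in PC and 1 to 4 in MG. In these fits 10 to 84 of 13054 to 13354 genes were called in EC, against 65 in the main test. In PC 11 to 112 of 13416 to 13691 were called, against 139, and in MG 557 to 1909 of 13233 to 13414, against 1404. The replicate block gave 1 in AC, with *Thbd*, and *Serpine2* in PC, and changed no other call of the 9. The cause was not tested.

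Of the further pathway genes, 0 were called in EC, 2 in PC, 1 in AC and 7 in MG. The joint fit gave 1 in EC, 0 in PC and 3 in AC, with 235, 288 and 89 of all 15003 genes called. In PC, a pseudocount of 0.1 and no filter gave 1 each, the replicate block and equal totals 5 each, and replicates 1 to 4 alone gave 0. Over all genes these 5 settings called 122 of 13597, 84 of 21642, 226 of 13597, 137 of 13607 and 31 of 13600. In AC the replicate block gave 4, and replicates 1 to 4 alone and no expression rule gave 2 each, with 242 of 15264, 48 of 15267 and 56 of 15264 genes called. Without both EC libraries that stood apart, 2 were called in EC, with 395 of all 13027 genes called. Leaving out a replicate gave 0 in PC, 1 to 2 in AC and 4 to 7 in MG, with 11 to 112, 12 to 61 and 557 to 1909 of all genes called.

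These changes turned their sign, none of them called. Equal totals gave *Plat* log2 changes of 0.07 in EC and 0.03 in PC, and the median of ratios gave *Plau* 0.01 in MG. Replicates 1 to 4 alone gave -0.02 for *Plat*, 0.14 for *Plau* and -0.62 for *F3* in MG and -0.31 for *Vwf* in EC. Without contralateral EC replicate 2, *Thbd* was at -0.29 and *Vwf* at -0.08 in EC. Leaving out libraries gave *Plat* -0.35 to 0.16 in EC and -0.14 to 0.52 in MG, *Plau* -0.50 to 0.17, *F3* -0.32 to 0.39 and *Vwf* -0.09 to 0.56 in MG, *Thbd* -0.29 to 0.52 and *Vwf* -0.15 to 0.22 in EC, and *Vwf* -0.45 to 0.07 in PC. At the depth of these libraries, *Plau* in EC was at or under 3 reads and its change there could not be measured.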
